A study of Mus musculus with 4 samples.

Results

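Secreted Wnt modulators are proteins that cells release to hold back or shape Wnt signalling. Of the 18101 genes common to the count tables, 9 were followed by name: Sfrp1, Sfrp2, Sfrp4, Sfrp5, Frzb, Wif1, Dkk2, Dkk3 and Sost. The study compared how cells of the ascending aorta respond to angiotensin II (AngII) when they come from the second heart field (SHF) and when they come from elsewhere. AngII is a peptide hormone that constricts vessels and raises blood pressure. Droplet-based single-cell RNA sequencing was done on live single cells of male Mef2c-mTmG mice, a strain in which a reporter marks cells by lineage and in which cells were sorted on that mark. All groups share this strain, sex and tissue. The libraries were SHF without treatment (SHF baseline), SHF after 3 days of AngII infusion (SHF AngII) and another lineage after 3 days of AngII (CNC AngII), where CNC is the labels' own unexplained name. The labels do not say how many mice gave each library, their age, or the AngII dose. Untreated CNC cells were not analysed here. Since every group is a single library, differences carry no replicate check or p-value. Intervals are exact, at 95%, and cover counting error only.

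Wnt proteins bind Frizzled receptors together with the co-receptors Lrp5 or Lrp6, which stabilises beta-catenin and turns on target genes, while other Wnt signals run through Ror receptors without beta-catenin. Secreted frizzled-related proteins (Sfrp1, Sfrp2, Sfrp4, Sfrp5 and Frzb) carry a domain like that of a Frizzled receptor and bind Wnt proteins outside the cell. Wif1 also binds Wnt proteins, through a domain of its own. Dkk2 and sclerostin, the product of Sost, bind the co-receptors. Dkk3 shares the Dickkopf fold, but its action on Wnt signalling is less settled. Sclerostin is best known as a brake on bone formation made by osteocytes, and the gene is also active in vascular smooth muscle.

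Smooth muscle cells were taken as cells with at least 5 UMIs of Myh11, the smooth muscle myosin heavy chain, and 0 of Pdgfra, a fibroblast receptor. Fibroblasts were cells with at least 1 UMI of Pdgfra and at most 2 of Myh11. A UMI, or unique molecular identifier, marks 1 captured transcript. Fibroblasts were also split by Pi16, a gene of adventitial fibroblasts, into Pi16-positive cells with at least 2 UMIs and Pi16-negative cells with 0. Smooth muscle numbered 2250 of 8330 kept cells in SHF baseline, 4639 of 9274 in SHF AngII and 6351 of 10154 in CNC AngII. Fibroblasts numbered 3927, 2638 and 841, of which 3106, 2200 and 640 were Pi16-positive and 547, 264 and 127 Pi16-negative. Cells just inside the fibroblast gate, with 1 UMI of Pdgfra, numbered 1331, 1048 and 392. Cells with Pdgfra and at least 3 UMIs of Myh11 fell in neither class and numbered 411, 454 and 353.

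The libraries held 92474476, 147854476 and 150954701 UMIs in the order SHF baseline, SHF AngII and CNC AngII, which is the order used below wherever 3 values follow each other. Pairs of libraries shared 29 to 34 cell barcodes, at most 0.361% of the smaller library. Markers that the gates did not use followed the classes: Tagln, an actin-binding protein of smooth muscle, stood at 21565, 23317 and 19208 CPM (counts scaled to 1000000 UMIs of the class) in smooth muscle and 600, 1973 and 1855 CPM in fibroblasts, and Dcn, the matrix protein decorin, at 288, 169 and 19.5 CPM in smooth muscle and 15568, 5790 and 4685 CPM in fibroblasts. Fibroblasts also held RNA of markers of other cell types. The 5 smooth muscle markers, Myh11 among them, summed in fibroblasts to 1233, 4029 and 3924 CPM, or 2.20%, 6.33% and 6.87% of their level in smooth muscle. Most of that sum was Tagln and Acta2, the smooth muscle actin. Acta2 was at 578, 1997 and 1996 CPM in fibroblasts, whereas Lmod1, another of the 5, was at 43.8, 35.1 and 44.1 CPM. Macrophage markers summed to 7.78, 12.9 and 191 CPM in fibroblasts. Whether this RNA came from other cells, and its part in the results below, was not tested. The same holds for fibroblast RNA in smooth muscle, where Dcn differed between the libraries as given above.

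The genes lie on different chromosomes or far apart, and in GENCODE M21 no exon of any of them overlaps an exon of another gene on the same strand. In the RefSeq annotation of GRCm38.p6, Sfrp1 spans chromosome 8, 23411383 to 23449632, on the plus strand, and Sfrp2 spans chromosome 3, 83765750 to 83774314, also on the plus strand. Exons of Sfrp2 overlap those of Gm26771 on the opposite strand, and whether counting used the strand is not given in the sources used here. Frzb lies on chromosome 2, 80411970 to 80447396, and Sost on chromosome 11, 101962458 to 101967015, both on the minus strand. Wif1 spans chromosome 10, 121034004 to 121100642, on the plus strand, and Dkk3 chromosome 7, 112116019 to 112159482, on the minus strand.

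Sost and Sfrp2 are shown here by the 250 bases before a start annotated for each. They were chosen because Sost separated smooth muscle from fibroblasts in every library and Sfrp2 differed in both cell classes. The sequences are from RefSeq on GRCm38.p6, 5′ to 3′ along the gene, at chr11:101967016-101967265 on the minus strand and chr3:83766071-83766320 on the plus strand. Of the 9 genes, 6 had an entry in the promoter table. The Sfrp2 window lies inside the gene span given above, so it does not precede the gene start at 83765750. Capitals mark motif matches on either strand among 7 motifs searched.
Sost: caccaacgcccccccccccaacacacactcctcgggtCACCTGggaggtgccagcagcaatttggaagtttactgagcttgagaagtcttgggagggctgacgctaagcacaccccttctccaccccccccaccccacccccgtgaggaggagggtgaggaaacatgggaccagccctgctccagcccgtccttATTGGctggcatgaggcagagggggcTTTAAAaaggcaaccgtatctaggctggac
Sfrp2: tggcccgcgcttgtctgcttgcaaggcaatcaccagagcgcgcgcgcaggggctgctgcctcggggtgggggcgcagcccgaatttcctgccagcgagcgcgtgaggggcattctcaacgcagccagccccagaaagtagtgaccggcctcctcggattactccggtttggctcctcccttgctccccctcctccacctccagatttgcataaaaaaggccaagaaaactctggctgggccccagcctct
The Sost window held an E-box (CANNTG, here CACCTG) from 213 to 208 bases before the start, a CCAAT box (here ATTGG on this strand) from 56 to 52, and TTTAAA from 30 to 25. An E-box was found in 66.2% of 32851 windows of this length, CCAAT in 33.8% and TTTAAA in 12.1%. CCAAT and TTTAAA were added to the search after the sequences had been read. The Sfrp2 window held none of the 7. The other motifs were CTTTGA, the core bound by T-cell factors (13.8% of windows), TGANTCA (6.75%), TATAAA (12.4%) and GGGCGG (32.7%). A match describes letters in this window and shows no binding.

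Smooth muscle and fibroblasts differed in the levels of these genes. Sfrp1, Sfrp2, Sfrp4 and Frzb were higher in fibroblasts and Sost was higher in smooth muscle in all 3 libraries, each by more than 2-fold. Ratios are log2 ratios of CPM with 1 CPM added to both sides, and a gene is called when its ratio passes 2-fold and its mean CPM is at least 10. At baseline 5 of the 7 members above that minimum were called, beside 21.5% of all genes tested. Under AngII all 7 were called in both libraries, beside 22.5% of genes for SHF and 21.4% for CNC. Sfrp5 and Dkk2 were below the minimum throughout. TMM scaling, a normalisation that trims extreme genes, set every ratio of fibroblasts over smooth muscle lower, by 0.25, 0.21 and 0.23.

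**Figure D1:**
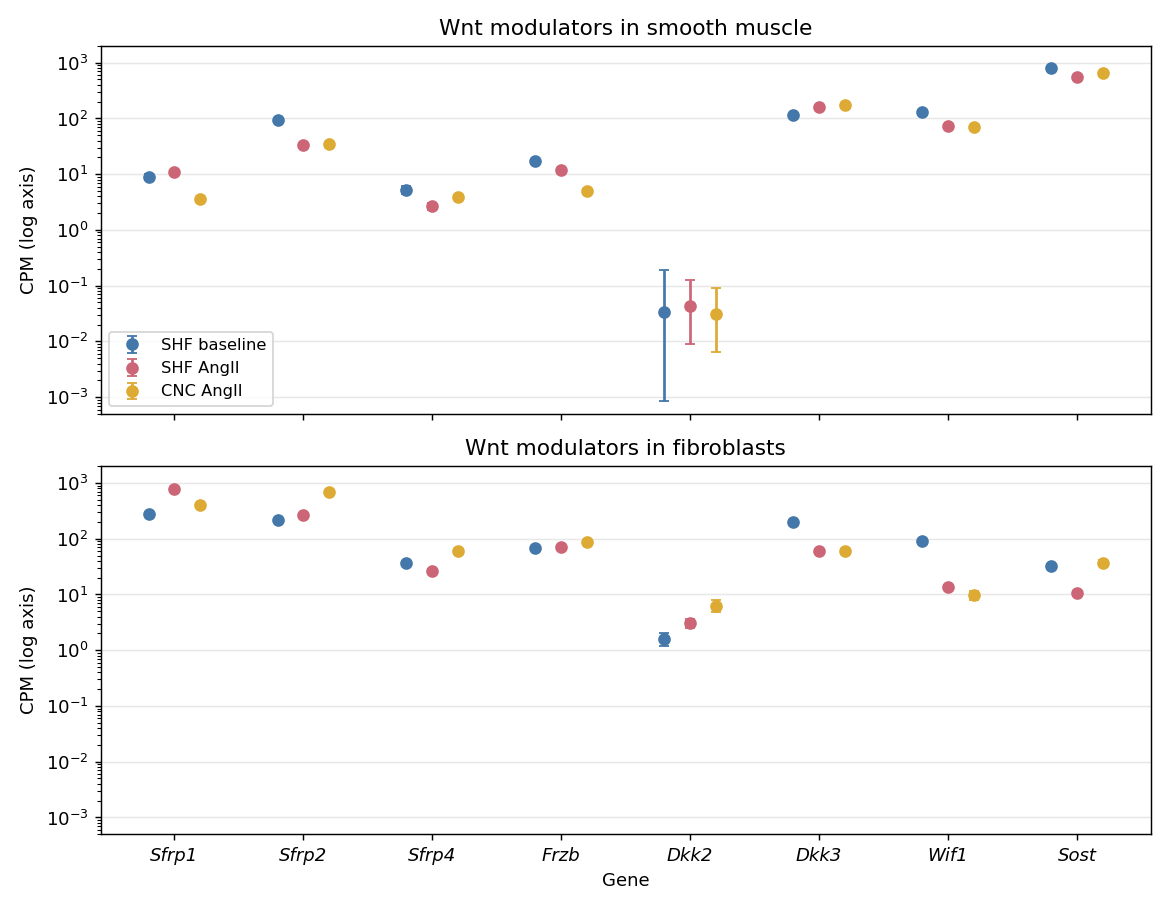
CPM (log axis) of 8 genes in smooth muscle (upper panel) and fibroblasts (lower panel) of each library. Points are summed counts and bars 95% exact Poisson intervals; Sfrp5, with at most 1 UMI per class and library, is not drawn. Sost lies far higher in smooth muscle and Sfrp1 far higher in fibroblasts of every library, whereas Dkk3 and Wif1 in fibroblasts are high in SHF baseline alone.

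Sost was measured at 796, 556 and 647 CPM in smooth muscle and at 32.3, 10.7 and 37.2 CPM in fibroblasts. The levels in smooth muscle lay above those in fibroblasts in each library, and SHF baseline was the highest of the 3. The log2 ratio of fibroblasts over smooth muscle was -4.58, -5.57 and -4.09. A Sost UMI was found in 92.9%, 88.8% and 91.7% of smooth muscle cells, and in 84.6%, 78.2% and 81.7% once every cell was thinned to 5000 UMIs. In fibroblasts the shares were 10.2%, 8.61% and 16.2% (thinned, 7.51%, 4.04% and 9.91%). The share in macrophage-gated cells of CNC AngII, which are not known to make the gene, was 8.22%, at 7.47 CPM and a median depth of 10961.5 UMIs. Shares at or near that value are read as background. Over all SHF AngII fibroblasts Sost was close to it, at 8.61% of cells and 10.7 CPM. Among them, Pi16-negative cells were higher, at 17.8% of cells and 39.6 CPM. Those with 5 or more Pi16 UMIs were at 7.12% and 6.38 CPM. The SHF libraries held only 6 and 13 macrophage-gated cells, too few to give a background value of their own. Endothelial-gated cells numbered 105 and 49 there, and their Sost is not reported here. Fibroblasts of SHF AngII were thus set against a value from another library. In the macrophage-gated cells of CNC AngII the summed smooth muscle markers were at 0.674% of their level in smooth muscle. In SHF AngII fibroblasts they were at 6.33%. The part of this difference in the Sost of fibroblasts was not tested.

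Wif1 was present in both classes at baseline but mainly in smooth muscle under AngII. Its level in smooth muscle was 130, 73.9 and 70.7 CPM, and in fibroblasts 92.4, 13.9 and 9.75 CPM. The log2 ratio of fibroblasts over smooth muscle went from -0.49 in SHF baseline to -2.33 in SHF AngII and -2.74 in CNC AngII. A Wif1 UMI was found in 53.0%, 46.1% and 49.0% of smooth muscle cells, against 6.62%, 14.2% and 7.97% of fibroblasts.

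Dkk3 was on different sides in the libraries. In smooth muscle it stood at 117, 157 and 175 CPM, and in fibroblasts at 196, 61.4 and 60.4 CPM. Fibroblasts were thus above smooth muscle in SHF baseline (log2 ratio 0.74) and below it in SHF AngII (-1.34) and CNC AngII (-1.52). The latter ratios passed 2-fold under all 15 alternative settings tried, and the baseline ratio passed it under none, with a range of 0.31 to 0.78.

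Sfrp1 was a fibroblast gene, at 280, 790 and 410 CPM there and 8.86, 10.8 and 3.58 CPM in smooth muscle. The ratios over smooth muscle were 4.83, 6.06 and 6.49. Only 4.52% to 8.71% of smooth muscle cells held a Sfrp1 UMI, against 44.4%, 66.5% and 50.8% of fibroblasts. Subtracting 5% of the whole library's profile from each class widened the SHF AngII ratio to 9.67, since it left almost no Sfrp1 in smooth muscle.

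Sfrp2 was found in both classes, at 219, 265 and 689 CPM in fibroblasts and 94.3, 32.9 and 35.5 CPM in smooth muscle. Its ratio of fibroblasts over smooth muscle was 1.21, 2.97 and 4.24. Sfrp4 stood at 36.3, 26.9 and 60.2 CPM in fibroblasts and at 5.28, 2.64 and 3.88 CPM in smooth muscle. Frzb stood at 66.9, 70.3 and 87.5 CPM in fibroblasts and at 17.2, 11.7 and 5.05 CPM in smooth muscle. The 95% intervals of Frzb in fibroblasts of the SHF libraries overlapped, at 64.3 to 69.5 CPM and 67.9 to 72.8 CPM. Under the stricter cell filter, which left 118 smooth muscle cells in SHF baseline, the baseline ratios of Sfrp2, Sfrp4 and Frzb were 0.68, 0.81 and 0.55 and no longer passed 2-fold.

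Dkk2 was rare, and most of its UMIs came from a few fibroblasts. It had 60, 135 and 71 UMIs in fibroblasts, or 1.59, 3.03 and 6.24 CPM, and 1, 3 and 3 UMIs in smooth muscle. The UMIs of fibroblasts came from 25, 50 and 27 cells, of which the highest held 8, 15 and 14. The thinned shares of fibroblasts with a UMI were 0.405%, 0.960% and 1.83%. Sfrp5 had 1, 0 and 1 UMIs in fibroblasts and 0, 0 and 1 in smooth muscle. For fibroblasts of SHF AngII a count of 0, with 3 counts taken as its limit, allows up to 0.0672 CPM.

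The next comparison set SHF AngII over SHF baseline, 1 lineage with and without the infusion. Fibroblasts had higher Sfrp1 and lower Wif1, Dkk3 and Sost under AngII, and smooth muscle had lower Sfrp2. In fibroblasts 4 of 7 members were called, 1 higher and 3 lower, beside 15.3% of all 7707 genes tested (4.72% higher and 10.6% lower). The median ratio of the 7 was -0.42, and that of all genes tested was -0.21. The same 4 genes were called in Pi16-positive (beside 15.6% of genes) and in Pi16-negative fibroblasts (beside 15%). In smooth muscle 1 of 5 was called, beside 6.31% of genes, and the median of the 5 was -0.52, against -0.10 for all genes. The baseline table was made with another gene annotation than both AngII tables, so this comparison also holds that difference, whose part was not tested. TMM scaling shifted the scale by -0.17 in smooth muscle and by -0.27 in fibroblasts, so that each ratio was higher by that amount.

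Among the Wnt binders, Sfrp1 in fibroblasts went from 280 CPM (95% interval 275 to 286) to 790 CPM (782 to 798), a log2 ratio of 1.49. The ratio was 1.53 in Pi16-positive and 1.24 in Pi16-negative fibroblasts. Cells with many copies were more frequent under AngII: fibroblasts with at least 10 Sfrp1 UMIs made up 8.17% of SHF baseline and 33.7% of SHF AngII as deposited, and 3.96% and 12.8% after thinning. Thinning matters here because the median fibroblast held 9506 UMIs in SHF baseline and 15392.5 in SHF AngII, and it left out 717 and 137 shallower cells. The ratio in all fibroblasts stayed past 2-fold under all 15 alternatives, from 1.09 to 1.76, and that in Pi16-negative cells under 14, with 0.63 when per-cell shares were averaged.

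Wif1 in fibroblasts went from 92.4 to 13.9 CPM, a log2 ratio of -2.65, which ranged from -2.79 to -1.97 over the alternatives. The ratio was -3.58 in Pi16-negative cells, from 363 to 29.4 CPM, and -1.48 in Pi16-positive cells, from 37.4 to 12.8 CPM. In the Pi16-negative cells the 5 cartilage-like markers summed to 1447 CPM at baseline and 398 CPM under AngII, and the 5 mesothelial markers to 0.199 and 248 CPM. Their part in the Wif1 result was not tested. The value in Pi16-positive cells reversed to 0.66 when cells were thinned before gating. In smooth muscle Wif1 went from 130 to 73.9 CPM, a ratio of -0.81 that did not pass 2-fold. That ratio stood at 0.11 under the stricter cell filter, which left few smooth muscle cells of SHF baseline.

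The lower Wif1 of AngII fibroblasts went with a small set of cells. Of the 3927 fibroblasts of SHF baseline, 69 held at least 10 Wif1 UMIs, and they carried 87.8% of the Wif1 UMIs of the class. Such cells numbered 2 of 2638 in SHF AngII and 1 of 841 in CNC AngII. After thinning they numbered 37 of 3210, 1 of 2501 and 0 of 767. Fibroblasts with any Wif1 UMI were not rarer under AngII in the SHF lineage, at 5.11% of thinned cells in SHF baseline and 6.16% in SHF AngII, beside 0.856% of macrophage-gated cells of CNC AngII.

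The 69 cells, which were picked for Wif1 after its values were seen, differed from the 3667 baseline fibroblasts with 0 Wif1 UMIs in other genes. Fibroblasts between these groups in Wif1 count were left out. Dkk3 stood at 966 CPM in the 69 cells and 161 CPM in those with 0, and Frzb at 214 and 60.2 CPM. Sfrp1 went the other way, at 89.5 and 293 CPM, as did Sost, at 3.16 and 33.0 CPM. Their Pi16 was 246 CPM, against 3601 CPM. They were rich in Comp (1737 against 87.9 CPM) and Chad (1272 against 12.3 CPM), matrix proteins of cartilage and tendon, and in Rspo3 (223 against 6.20 CPM), an R-spondin that strengthens Wnt signals. Acta2, the smooth muscle actin, was lower in them (299 against 572 CPM).

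Sfrp2 in smooth muscle went from 94.3 CPM (90.9 to 97.9) to 32.9 CPM (31.6 to 34.3), a ratio of -1.49, and was called under all 15 alternatives, from -1.89 to -1.28. The share of smooth muscle cells with a Sfrp2 UMI went from 43.0% to 22.5% (thinned, 27.1% to 11.3%). In fibroblasts its ratio was 0.27, with 0.37 in Pi16-positive and -0.37 in Pi16-negative cells. Sfrp4 had ratios of -0.42 in fibroblasts and, below the minimum, -0.79 in smooth muscle. Frzb had 0.07 in fibroblasts and -0.52 in smooth muscle. None of these passed 2-fold.

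Dkk3 in fibroblasts went from 196 CPM (192 to 201) to 61.4 CPM (59.1 to 63.7), a ratio of -1.66. It was called under all 15 alternatives, in Pi16-positive (-1.40) and in Pi16-negative cells (-1.98) as well. In smooth muscle the ratio was 0.42, and 0.03 under the stricter cell filter with its few baseline cells. Sost had a ratio of -0.52 in smooth muscle. In fibroblasts it went from 32.3 to 10.7 CPM, a ratio of -1.51 that ranged from -4.04 to -0.50 and was called under 11 of 15 alternatives. In the same fibroblasts the summed smooth muscle markers were higher under AngII, at 4029 against 1233 CPM, and their part in the Sost ratio was not tested. Dkk2 had a ratio of 0.63 at levels below the minimum.

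**Figure D2:**
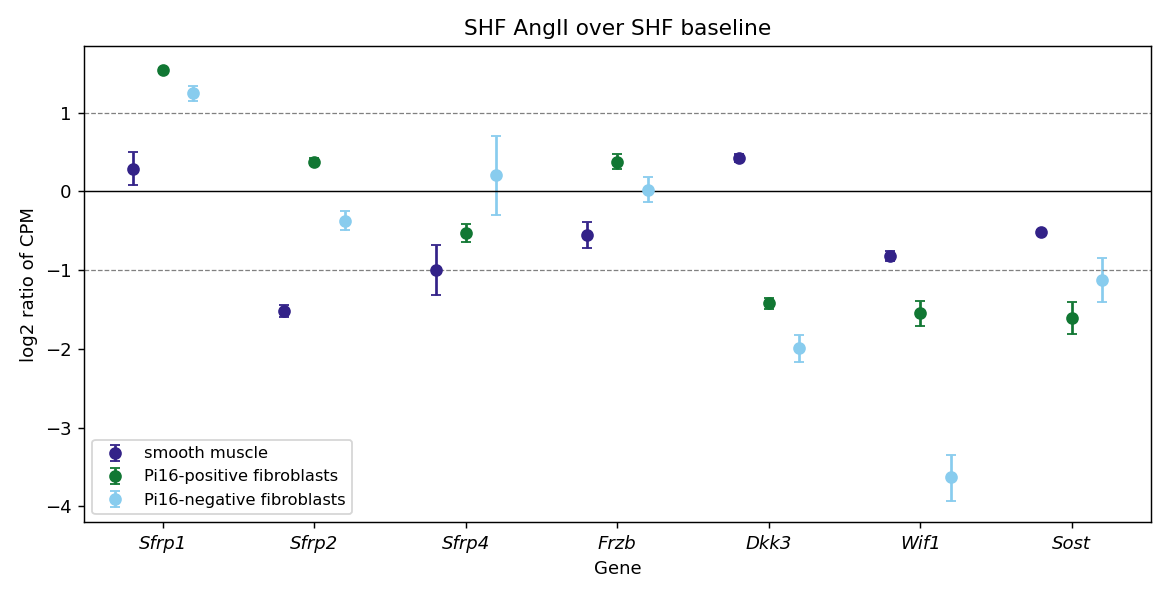
log2 ratio of CPM, SHF AngII over SHF baseline, without a pseudocount, for 7 genes in smooth muscle, Pi16-positive and Pi16-negative fibroblasts. Bars are 95% counting intervals and dashed lines mark 2-fold. The points of Sfrp1 lie above 2-fold and those of Dkk3, Wif1 and Sost below it in both fibroblast groups, whereas in smooth muscle Sfrp2 is the gene farthest from 0.

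The origin comparison set CNC AngII over SHF AngII, 2 libraries with the same gene list. Fibroblasts of the CNC library had higher Sfrp2, Sfrp4 and Sost, and no member was lower past 2-fold. Of 7 members 3 were called, beside 0.608% of 7237 genes tested (0.456% higher). The median ratio of the 7 was 0.31, against 0.01 for all genes. The same 3 were called in Pi16-positive (beside 0.527%) and in Pi16-negative fibroblasts (beside 3.06%). In smooth muscle 0 of 4 members were called, beside 0.813% of genes.

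Sfrp2 in fibroblasts stood at 265 CPM (260 to 270) in SHF AngII and 689 CPM (673 to 704) in CNC AngII, a ratio of 1.37. The ratio was 1.32 in Pi16-positive and 1.85 in Pi16-negative cells. The share of fibroblasts with a UMI was 35.5% and 57.9% (thinned, 26.5% and 51.2%), against 2.11% of macrophage-gated cells of CNC AngII. All 15 alternatives kept it past 2-fold, from 1.24 to 1.77. In smooth muscle its ratio was 0.11.

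Sfrp4 in fibroblasts stood at 26.9 and 60.2 CPM, a ratio of 1.14, with 1.03 in Pi16-positive and 1.95 in Pi16-negative cells. It passed 2-fold under 10 of 15 alternatives in all fibroblasts, from 0.81 to 1.32, and under 7 of 15 in Pi16-positive cells. Sfrp1 was on the other side, at 790 and 410 CPM, a ratio of -0.94 that did not pass 2-fold. Frzb had a ratio of 0.31 and Wif1 of -0.47. In smooth muscle Sfrp1 (-1.37) and Frzb (-1.07) were past 2-fold but below the minimum level, at 10.8 and 3.58 CPM and at 11.7 and 5.05 CPM. The fibroblast gene Dcn was also lower in smooth muscle of CNC AngII than of SHF AngII, as given above. The part of fibroblast RNA in these ratios was not tested.

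Sost in fibroblasts stood at 10.7 and 37.2 CPM, a ratio of 1.70, with 1.48 in Pi16-positive and 1.57 in Pi16-negative cells. The summed smooth muscle markers of these fibroblasts were at 4029 and 3924 CPM, or 6.33% and 6.87% of their level in smooth muscle. Sost in fibroblasts was at 1.93% and 5.74% of its level in smooth muscle. The part of smooth muscle RNA in this ratio was not tested. The SHF AngII value of 10.7 CPM, a class average, was near the background read from macrophage-gated cells of CNC AngII. Pi16-negative fibroblasts of SHF AngII were above that background, at 39.6 CPM, but also held more RNA of smooth muscle markers than Pi16-positive ones. In smooth muscle Sost was at 556 and 647 CPM (0.22). In Pi16-positive fibroblasts no Sost was left in either library once 5% of the library profile was subtracted, so that this setting gives no ratio there. Dkk3 had a ratio of -0.02 in fibroblasts and 0.15 in smooth muscle. Its fibroblast levels of 61.4 CPM (59.1 to 63.7) and 60.4 CPM (56.0 to 65.1) overlapped in their intervals. Dkk2 had a ratio of 0.85 at levels below the minimum. CNC fibroblasts also held more macrophage RNA, at 191 against 12.9 CPM of summed markers, and without the cells that held a UMI of 7 immune, mesothelial or endothelial genes the ratio of Sfrp4 was 1.32.

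**Figure D3:**
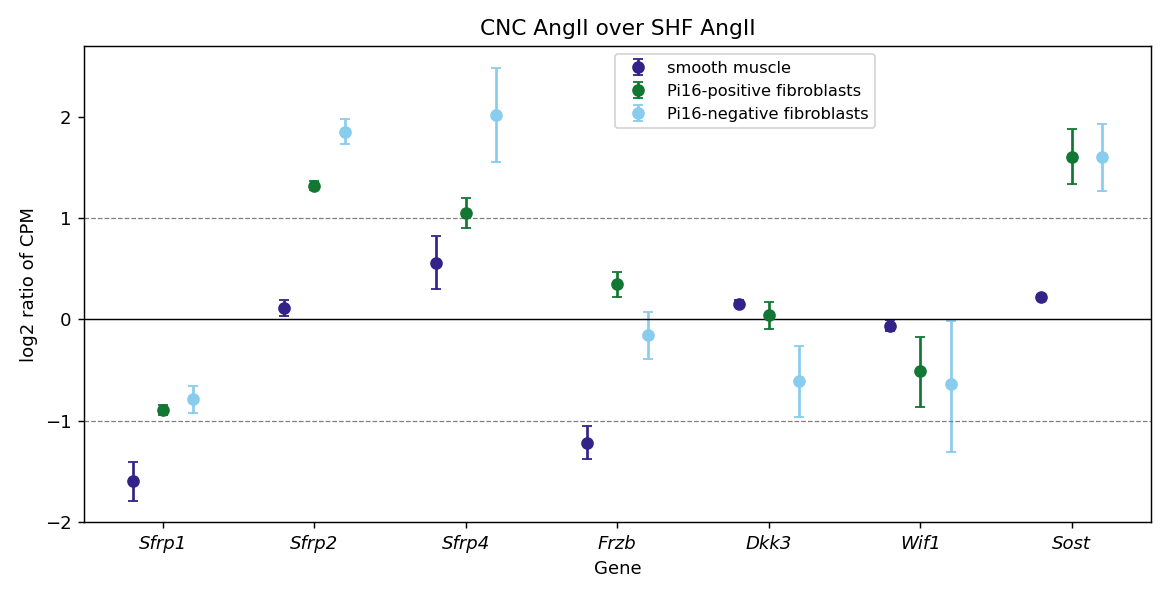
log2 ratio of CPM, CNC AngII over SHF AngII, without a pseudocount, for 7 genes in smooth muscle, Pi16-positive and Pi16-negative fibroblasts. Bars are 95% counting intervals and dashed lines mark 2-fold. The points of Sfrp2, Sfrp4 and Sost lie above 2-fold in both fibroblast groups, whereas those of Dkk3, Wif1 and Frzb in fibroblasts lie within it.

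Within fibroblasts the members differed in how they followed Pi16. In SHF baseline Frzb, Dkk3, Wif1 and Sost were lower and Sfrp4 was higher in Pi16-positive than in Pi16-negative cells, so that 5 of 7 were called, beside 5.02% of genes. In SHF AngII 3 of 7 were called (Frzb, Wif1 and Sost, all lower), beside 3.23%, and in CNC AngII 1 of 7 (Sost), beside 4.06%. Pi16-negative fibroblasts of the AngII libraries held mesothelial markers, summed to 248 and 91.8 CPM, against 0.199 CPM at baseline. Their part in these differences was not tested.

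Frzb stood at 47.2 CPM in Pi16-positive and 162 CPM in Pi16-negative cells of SHF baseline, a ratio of -1.76. The same ratio was -1.41 in SHF AngII and -0.92 in CNC AngII. By Pi16 count its baseline level went from 162 CPM at 0 UMIs to 127 CPM at 1, 87.4 CPM at 2 to 4 and 41.7 CPM at 5 or more. In CNC AngII it went from 148 to 91.7 and 53.2 CPM, and was 83.8 CPM at 5 or more.

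Sost was lower at each higher Pi16 step in all 3 libraries. In SHF baseline it went from 86.2 to 62.4, 46.5 and 17.9 CPM, in SHF AngII from 39.6 to 26.2, 10.3 and 6.38 CPM, and in CNC AngII from 120 to 77.4, 37.7 and 17.4 CPM. Summed smooth muscle markers moved the same way, at 2198 CPM in Pi16-negative and 1033 CPM in Pi16-positive cells of SHF baseline, 7933 and 3557 CPM in SHF AngII, and 7129 and 3213 CPM in CNC AngII. Their part in the Sost result was not tested.

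Wif1 and Dkk3 followed Pi16 at baseline. Wif1 was at 363, 250, 220 and 12.3 CPM by Pi16 step in SHF baseline, but at 29.4, 9.0, 12.7 and 12.8 CPM in SHF AngII. At 5 or more Pi16 UMIs the SHF libraries thus differed little in Wif1 CPM, and the gap in CPM lay in cells with fewer. The share of those Pi16-rich cells with a Wif1 UMI, as deposited, was 3.69% in SHF baseline and 15.4% in SHF AngII, at median depths of 10193 and 16357.5 UMIs. Dkk3 was at 373, 365, 281 and 138 CPM in SHF baseline and at 93.8, 65.4, 66.8 and 56.4 CPM in SHF AngII, lower under AngII at every step. The ratio of Wif1 between Pi16-positive and Pi16-negative cells of SHF AngII, -1.14, reversed to 0.49 with thinned cells and to 0.92 with stricter gates.

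Sfrp1 and Sfrp2 followed Pi16 little. Sfrp1 was at 273 CPM in Pi16-positive and 285 CPM in Pi16-negative cells of SHF baseline (-0.06), with ratios of 0.23 and 0.12 in the AngII libraries. Sfrp2 had -0.70, 0.04 and -0.49. Sfrp4 had 1.33, 0.63 and -0.30, and its baseline value was 0.89 with thinned cells.

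**Figure D4:**
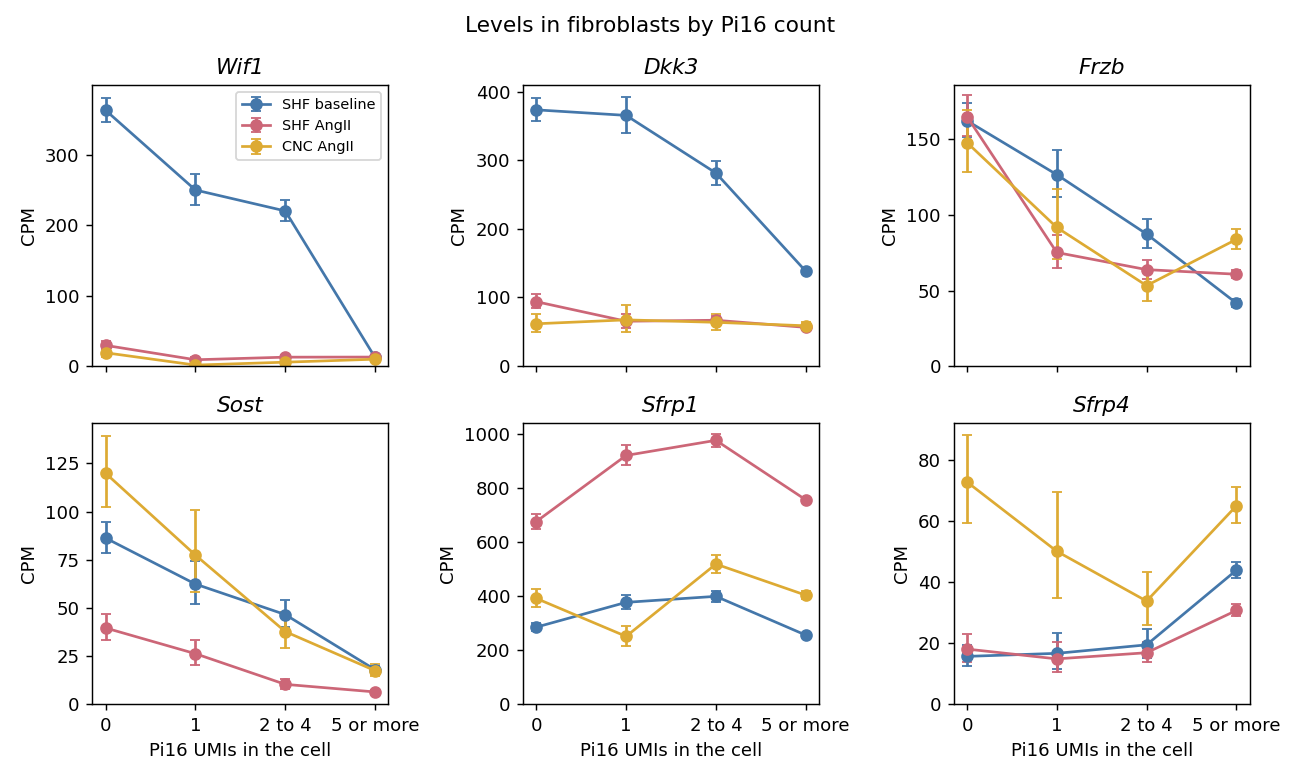
CPM of 6 genes in fibroblasts by the number of Pi16 UMIs in the cell, with lines joining the 4 steps of each library and 95% exact Poisson intervals. Wif1 and Dkk3 are high in SHF baseline cells with few Pi16 UMIs and low in both AngII libraries, whereas Sost is lower at each higher step in all 3.

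Fibroblasts rich in Sfrp1 held Frzb less often in each library. After thinning, a Frzb UMI was present in 22.0% of SHF baseline fibroblasts with 0 Sfrp1 UMIs, 16.8% of those with 1 to 2, 7.89% with 3 to 9 and 2.36% with 10 or more. In SHF AngII the shares were 31.4%, 18.9%, 9.45% and 3.13%. In CNC AngII they were 31.7%, 8.76%, 9.29% and 6.67%, the last from 3 of 45 cells (interval 1.40% to 18.3%). Cells with both genes were 0.66, 0.56 and 0.39 times as frequent as the product of their shares gives. Sfrp2 had no such order over the libraries. By the same Sfrp1 steps it was found in 28.6%, 27.0%, 24.9% and 33.1% of fibroblasts in SHF baseline, in 21.5%, 23.2%, 27.7% and 46.1% in SHF AngII, and in 54.8%, 45.3%, 39.3% and 71.1% in CNC AngII, the last again from 45 cells. Cells with both Sfrp1 and Sfrp2 were 0.96, 1.14 and 0.90 times as frequent as the product gives. Frzb and Sost were found together 2.37, 2.02 and 1.97 times as often as the product gives. All of these are shares of cells and no test was made over cells.

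**Figure D5:**
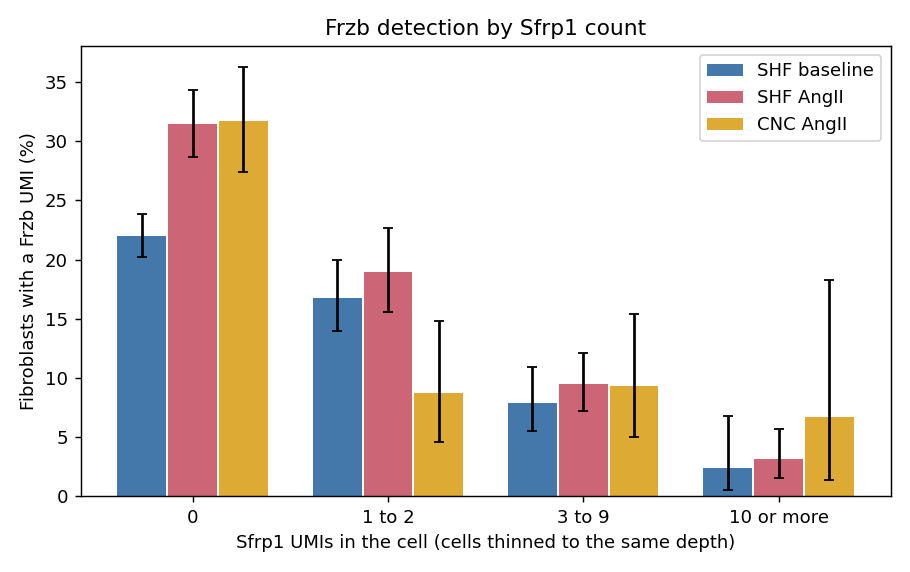
Share of fibroblasts with a Frzb UMI (percent), by the number of Sfrp1 UMIs in the cell, after each cell was thinned to 5000 UMIs. Bars are libraries with 95% exact binomial intervals, and fibroblasts with 10 or more Sfrp1 UMIs hold Frzb in 2.36% to 6.67% of cells, against 22.0% to 31.7% of those with none.

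The genes most like each member were taken as the 3 with the highest mean Pearson correlation over the 3 libraries, across the 3927, 2638 and 841 fibroblasts. The cells of a library share its depth and handling, so these values describe the libraries and have no p. For Sfrp1 they were Gpx3, a secreted glutathione peroxidase (mean r 0.54), Gpc3, a glypican (0.50), and Olfml3 (0.45). For Frzb they were Tm4sf1 (0.41), Tnfrsf11b, the decoy receptor osteoprotegerin (0.38), and Smoc1 (0.36). Tnfrsf11b was also among the 3 genes with the lowest r to Sfrp1 (-0.37), an observation outside the naming rule. For Sfrp2 they were the elastic fibre genes Fbln5 (0.31), Lox (0.26) and Eln (0.23). The highest values for Sfrp4 (Ly6c1, 0.18) and Dkk3 (Prelp, 0.23) were weak. Wif1, Sost, Dkk2 and Sfrp5 were in too few fibroblasts for this rule.

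The other genes of the Wnt pathway were read from a list of 71. In fibroblasts 27 had a mean of at least 10 CPM, of which 1 was higher and 8 lower past 2-fold under AngII in the SHF lineage, beside 4.72% higher and 10.6% lower of all genes, with a median ratio of -0.63 (all genes, -0.21). In smooth muscle 1 of 26 was higher and 3 were lower, beside 2.86% and 3.46% of all genes, with a median of -0.40 (all genes, -0.10). In CNC AngII over SHF AngII 0 of 24 in fibroblasts and 0 of 21 in smooth muscle passed 2-fold, beside 0.608% and 0.813% of all genes, so neither count sets the list apart.

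Among the ligands, Wnt5a, which mostly signals without beta-catenin, stood at 169, 49.6 and 30.4 CPM in fibroblasts, a ratio of -1.75 for AngII over baseline. It was at 8.76, 2.86 and 0.792 CPM in smooth muscle. Wnt9a had a ratio of -1.69 in fibroblasts, from 23.5 to 6.59 CPM. Wnt16 was on the smooth muscle side, at 36.8, 47.5 and 60.4 CPM there against 2.76, 0.314 and 0.615 CPM in fibroblasts. Among the receptors, Fzd7 had a ratio of -1.36 in fibroblasts and Fzd1 of -1.01 in smooth muscle. Lgr6, a receptor for R-spondins, stood at 102, 85.3 and 90.4 CPM in smooth muscle and at 5.76, 3.45 and 4.39 CPM in fibroblasts. Rspo3 had a ratio of -1.24 in all fibroblasts and of -1.91 in Pi16-negative ones, from 50.7 to 12.7 CPM. Kremen1, a receptor for Dickkopf proteins, had -1.20 in fibroblasts. Inside the cell, Tcf7l2, a transcription factor that acts with beta-catenin, had -1.38 in smooth muscle, from 65.4 to 24.6 CPM. Dvl3, which relays the receptor signal, was the only listed gene higher past 2-fold there, at 1.29, from 5.49 to 14.8 CPM. Dact1, which binds Dishevelled proteins, had -1.48 in smooth muscle. In fibroblasts the only listed gene higher past 2-fold under AngII was Ccnd1, listed as a target gene, from 21.5 to 44.9 CPM.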

How the data were processed

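The authors deposited raw UMI counts per gene and cell barcode, made with the 10x Chromium 3' v3 kit per the labels. The submitters' processing notes name fastp, STAR 2.5, HTSeq 0.6.1 and mm10, with no role or order. How cells were called is not given in the sources used here. The baseline file lists 18760 genes and each AngII file lists 32285. Names were matched directly (17594) or by a unique synonym (507), and 18101 common genes held 99.5% to 99.8% of UMIs. Barcodes under 500 detected genes or over 10% mitochondrial UMIs were dropped, and Scrublet doublets (scanpy 1.11.5; 2.23% to 2.99%) were left out. UMIs were summed per class, with a 1 CPM pseudocount and a mean minimum of 10 CPM. Intervals are exact Poisson, conditional binomial and Clopper-Pearson. Thinning drew 5000 UMIs per cell, leaving out shallower cells. The ratio code was tested on simulated data. Besides the 9 members, up to 5 other Wnt genes per comparison with the largest ratios, role examples, cell type markers and the 3 genes most like a member (in at least 10% of fibroblasts of every library, gating genes left out) could be named. Members and lists were chosen with earlier results of these data known. Alternatives for cells were all barcodes, a looser filter (200 genes, 20% mitochondrial), a stricter one (1000 genes, 5%), doublets kept and thinning before gating. Stricter gates took Myh11 at least 10, or Pdgfra at least 2 without Myh11. Another left out cells with RNA of other cell types. Scaling alternatives were TMM, median of ratios, totals without mitochondrial and ribosomal genes, per-cell shares and 5% subtraction. The rest were a 10 CPM pseudocount, no minimum and a 50 CPM minimum.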

Additional observations from a re-analysis of the deposited data

Results flagged for a closer look

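Sfrp2 had opposite directions in the cell classes under AngII: its log2 ratio of SHF AngII over SHF baseline was -1.49 in smooth muscle and 0.27 in fibroblasts, a difference of 1.77. With thinned cells the fibroblast ratio was -0.08. Dkk3 did the reverse, at 0.42 in smooth muscle and -1.66 in fibroblasts, a difference of -2.08. Seen within libraries, the Dkk3 ratio of fibroblasts over smooth muscle was 0.74 in SHF baseline and -1.34 in SHF AngII, again a difference of -2.08, since the same values enter both. Against CNC AngII, at -1.52, the difference was -2.25. None of these differences was tested, because each group has 1 library.

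Cells outside both classes, which enter no comparison above, held 169 CPM of Sfrp1 in SHF baseline and 368 CPM in SHF AngII, a log2 ratio of 1.12, in the same direction as in fibroblasts. They numbered 2153 and 1997, of which 1706 and 1466 had 0 Pdgfra and at most 2 Myh11 UMIs. This difference was not tested either.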

How the results depend on the processing

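There are no replicates to leave out. No paired analysis was possible because each group has 1 library. Of 15 alternatives, the one leaving out cells with RNA of other cell types was chosen after seeing the data. Over the 50 called member ratios, 692 of 750 alternative values were still past 2-fold and the minimum, and 747 kept their sign. The 3 reversals were of Wif1: AngII over baseline in Pi16-positive fibroblasts (0.66 with thinned cells), and Pi16-positive over Pi16-negative cells of SHF AngII (0.49 with thinned cells, 0.92 with stricter gates). Of 210 alternative counts of called members, 188 stayed within 1.5 times the main count. The others follow. With a mean of at least 50 CPM, the counts were 2 in AngII over baseline in Pi16-positive fibroblasts (main 4), 1 in CNC over SHF in fibroblasts (3), 1 there in Pi16-positive cells (3), 3 in fibroblasts over smooth muscle of SHF baseline (5), 4 in SHF AngII (7), 4 in CNC AngII (7), and 1 in Pi16-positive over Pi16-negative cells of SHF AngII (3); fewer members are tested at that minimum. Pi16-positive over Pi16-negative cells of CNC AngII (1) gave 2 with all barcodes, a looser filter, doublets kept, totals without mitochondrial and ribosomal genes, per-cell shares, thinned cells, stricter gates and 5% subtraction. The gained gene was Frzb, lower, with thinned cells and stricter gates, and Wif1, lower, in the others. Wif1, not called there in the main setting (-0.999), was at 1.07 with thinned cells, 3.26 with stricter gates and 0.03 with the stricter cell filter. The stricter cell filter, which left few smooth muscle cells of SHF baseline, gave 3 in AngII over baseline in smooth muscle (1). Frzb was then at -1.52 there. The same filter gave 2 in fibroblasts over smooth muscle of SHF baseline (5). CNC over SHF in smooth muscle (0) gave 1 without mitochondrial and ribosomal genes in the totals and 2 with no minimum. AngII over baseline gave 2 with per-cell shares in Pi16-negative fibroblasts (4) and 2 with thinned cells in Pi16-positive ones (4). A pseudocount of 10 CPM gave 1 in CNC over SHF in Pi16-positive fibroblasts (3). Depth limits Sfrp5 and Dkk2, and nearness to background limits the Sost of SHF AngII fibroblasts. As a class average that Sost lies near the background read from macrophage-gated cells of CNC AngII. Pi16-negative cells were above it, at 39.6 CPM, but they also held more RNA of smooth muscle markers than Pi16-positive ones. The part of that RNA in their Sost was not tested.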

Other observations

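Within smooth muscle, Sost was lower in cells rich in Spp1, the osteopontin gene. Smooth muscle cells with at least 5 Spp1 UMIs held 278 CPM of Sost in SHF AngII (156 cells) and 367 CPM in CNC AngII (531 cells), against 586 and 720 CPM in cells with 0. Their median depths were 23020 and 21138 UMIs, against 12629.5 and 12428, and the part of depth was not tested. Wif1 was at 85.8 and 64.0 CPM in the Spp1-rich cells, against 73.1 and 71.8 CPM. Across smooth muscle cells, the genes with the highest mean correlation to Sost were Ccn3 (0.36), Cped1 (0.33) and Nox4 (0.29), and those with the lowest were Anxa2 (-0.32), Fxyd5 (-0.30) and Timp1 (-0.29). These subsets and genes were chosen after values were seen.

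Fibroblasts of SHF AngII with a UMI of Cthrc1, a gene of activated fibroblasts, held more Sfrp1 (891 against 499 CPM) and Sfrp2 (318 against 111 CPM) and less Frzb (56.0 against 112 CPM) and Sost (5.37 against 26.2 CPM) than those with 0. In CNC AngII Sfrp1 was at 405 and 422 CPM and Sfrp2 at 741 and 579 CPM. The cells with Cthrc1 were deeper, with a median of 19143.5 against 10583.5 UMIs in SHF AngII and 15076 against 8699.5 in CNC AngII. In SHF baseline, fibroblasts with at least 2 UMIs of Comp or Chad held 534 CPM of Wif1 and 456 CPM of Dkk3, against 45.0 and 168 CPM in those with 0.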
